A study of Rattus norvegicus with 3 samples.

Results

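The genes described here belong to the route that turns inositol and UDP-glucose into glucuronate and on to either xylulose or ascorbate, together with the carriers of ascorbate. They were chosen by name: Miox, Ugdh, Akr1a1, Cryl1, Rgn, Gulo, Slc23a1 and Slc23a2, with every probe set annotated to 1 of them and to no other gene. All 8 genes were measured, by 10 of the 31099 probe sets on the array and as 8 of 14217 named genes. Gulo and Slc23a2 had 2 probe sets each and the other 6 genes 1 each.

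The study profiled the transcripts of renal proximal tubules from male Sprague-Dawley rats aged 7 to 8 weeks, with 3 preparations each measured on 1 Affymetrix array. All 3 formed 1 group, with no untreated, undigested or other reference tissue. Every rat had been given heparin (250 units, intraperitoneal) and was decapitated 30 min later, with collagenase at 2 mg/ml perfused through the aorta and then applied to the excised cortex for 20 min, and the tubules were separated in 42.5% Percoll. Whether a preparation was 1 animal or a pool is not given, so the SD over arrays is the spread between these preparations, which may be technical.

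Myo-inositol oxygenase opens the ring of inositol to give glucuronate, and in rodents the proximal tubule is its main site. Glucuronate is reduced to gulonate, which has a pair of fates: dehydrogenation towards xylulose and the pentose phosphate pathway, or closure to a lactone that gulonolactone oxidase turns into ascorbate. Rats, unlike humans, keep a working Gulo gene and make ascorbate in the liver, while the proximal tubule reclaims filtered ascorbate through sodium-coupled carriers.

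Promoter sequences are shown for Miox, as the gene that opens the route, and for the carriers Slc23a1 and Slc23a2, as related genes used in different tissues. Each is the 250 bases before the start site that the RefSeq promoter table gives (build GRCr8), written 5′ to 3′ on the gene's strand. The Miox window lies at chr7:122284410-122284659 (+), Slc23a1 at chr18:27502486-27502735 (-) and Slc23a2 at chr3:139847344-139847593 (-). Capitals mark matches, on either strand, to a TATA box (TATAAA), a GC box (GGGCGG) or a half-site of the tubule factor HNF1 (GTTAAT).
Miox: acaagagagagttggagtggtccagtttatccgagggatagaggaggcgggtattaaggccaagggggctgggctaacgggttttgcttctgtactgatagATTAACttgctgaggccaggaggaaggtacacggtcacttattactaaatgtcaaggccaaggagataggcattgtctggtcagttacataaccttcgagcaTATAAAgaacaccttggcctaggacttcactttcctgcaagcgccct
Slc23a1: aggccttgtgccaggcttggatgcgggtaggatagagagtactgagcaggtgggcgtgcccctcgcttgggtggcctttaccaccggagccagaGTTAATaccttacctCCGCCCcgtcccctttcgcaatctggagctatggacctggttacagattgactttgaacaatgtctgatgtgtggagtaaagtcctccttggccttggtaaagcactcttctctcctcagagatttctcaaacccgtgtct
Slc23a2: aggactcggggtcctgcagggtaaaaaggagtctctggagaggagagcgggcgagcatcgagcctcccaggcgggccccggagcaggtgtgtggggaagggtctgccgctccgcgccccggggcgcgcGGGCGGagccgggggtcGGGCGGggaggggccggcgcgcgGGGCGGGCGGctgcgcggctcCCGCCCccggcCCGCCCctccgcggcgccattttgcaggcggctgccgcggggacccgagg

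The Miox window held a TATA box at positions -47 to -42 from the start site and an HNF1 half-site on the opposite strand at -149 to -144. The Slc23a1 window held an HNF1 half-site at -156 to -151 and 1 GC box. The Slc23a2 window held 6 GC boxes, of which 1 pair overlapped, and neither of the other motifs. Of all 33469 windows of this length in the table, 12.9% held a TATA box, 30.5% a GC box and 6.45% an HNF1 half-site. The share of G and C was 48.8% for Miox, 53.6% for Slc23a1 and 79.6% for Slc23a2, against a median of 51.2% over all windows. Of the other members, Ugdh, Akr1a1, Cryl1 and Rgn also had a window, with 2, 0, 1 and 1 GC boxes in that order and no match to the other motifs, and Gulo was not searched. These matches are letters in a short window and not measured binding.

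On every array 7 of the 8 genes gave signals above the array median, and Gulo, the last enzyme of ascorbate synthesis, lay below it. Over all named genes, 61.0% lay above the median on every array. Above the 75th percentile on all 3 arrays were 6 of the 8 genes, against 36.4% of all named genes, with Slc23a2 and Gulo outside. Above the 25th percentile were 7 of the 8, against 76.0%. The median percentile of the 8 genes among named genes was 87.8, against 50.0 over all named genes. Median percentiles, here and for the lists below, rank named genes only. The array median and the 25th and 75th percentile lines have another base, all probe sets other than controls. By probe set, 7 of 10 lay above the median on all 3 arrays, against 54.5% of all probe sets naming 1 gene. The list is short and its genes were named with earlier results of these data known, so these counts are a description.

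**Figure D1:**
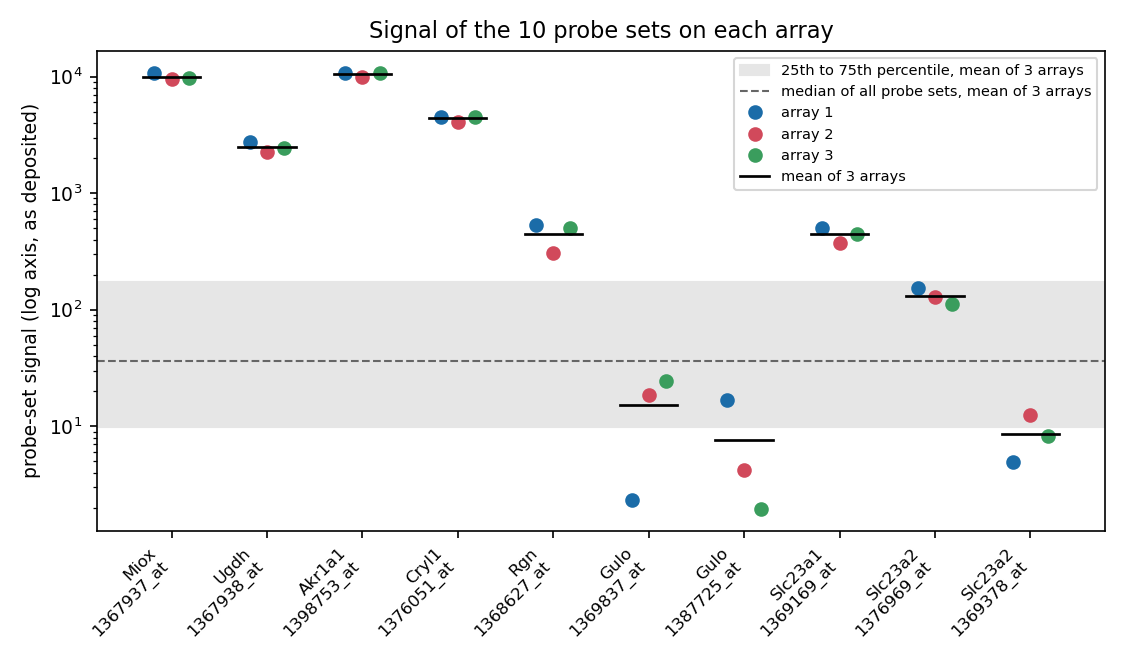
Signal of each of the 10 probe sets (log axis, linear signal as deposited) on arrays 1, 2 and 3, with the mean of the 3 arrays as a bar; the dashed line is the median and the grey band the 25th to 75th percentile of all probe sets. The 7 probe sets of Miox, Ugdh, Akr1a1, Cryl1, Rgn, Slc23a1 and one of Slc23a2 sit above the median, and both of Gulo and the other of Slc23a2 sit below it.

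The array median of all probe sets other than controls was 37.1, 37.4 and 34.9 on arrays 1, 2 and 3, and the mean was 277, 248 and 256. All 14 listed proximal tubule markers lay above the median on all 3 arrays, and so did 7 of 7 markers of thick limb and distal tubule, 3 of 6 of collecting duct, 3 of 3 of endothelium and 3 of 5 of macrophages. Of 11 hepatocyte markers 1 did so, and of 10 genes restricted to tissues outside the kidney 1 did so. The latter was Ins1, at 54.1, 46.9 and 54.9 on arrays 1, 2 and 3, so a place above the median is not a detection call. How much of a member's signal came from cells other than proximal tubule was not tested. In bulk RNA, fewer cells of a type and less RNA per cell cannot be told apart.

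Among the enzymes that supply glucuronate, Miox, the oxygenase of inositol, gave signals of 10628, 9537 and 9641 on arrays 1, 2 and 3. These 3 values lay within 1.11-fold of each other, with a mean of 9935 ± 602 (SD, n = 3), and they were between 255 and 286 times the median of their arrays. Ugdh, which oxidises UDP-glucose to the UDP-glucuronate used for conjugation and for matrix polysaccharides, gave 2757, 2242 and 2424. The highest of them, on array 1, was 1.23 times the lowest, on array 2, and the mean was 2474 ± 261 (SD, n = 3). Probe sets differ in affinity, so the signals of different genes are not ranked against each other.

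Akr1a1, the aldehyde reductase that turns glucuronate into gulonate, gave 10816, 9838 and 10635 on arrays 1, 2 and 3. In deposited signal it had the smallest coefficient of variation of the 10 probe sets, 4.99%. On the centred log2 scale Miox had the smallest range of the 10, at 0.16 against 0.18 for Akr1a1. Cryl1, a gulonate dehydrogenase on the way to xylulose, gave 4539, 4058 and 4506, a mean of 4368 ± 268 (SD, n = 3). The gene that leads from gulonate to the pentose route thus lay above the 75th percentile, which was between 167 and 181, on every array.

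On the branch towards ascorbate, Rgn and Gulo lay on different sides of the array median. Rgn, a lactonase also called regucalcin, which in rodent liver closes gulonate to its lactone, gave 533, 305 and 507 on arrays 1, 2 and 3. Array 2 was the low array, at 8.14 times its median, against 14.3 and 14.5 times on arrays 1 and 3. Gulo was read by a pair of probe sets. Probe set 1369837_at gave 2.35, 18.7 and 24.4 on arrays 1, 2 and 3, and probe set 1387725_at gave 16.8, 4.25 and 1.96. All 6 readings lay below the array median, and the probe sets ran in opposite order over the arrays. Over all probe sets naming 1 gene, 37.6% lay at or below the median on all 3 arrays.

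Gulo was the only member whose range over the arrays reached 2-fold, at 1.20 log2 units on the scale of log2(signal + 16), centred on each array's median. Its other probe set ranged over 0.81 log2 units in the opposite order. Of all 4568 genes at or below the median on every array, 7.03% ranged 2-fold or more. The Gulo range was 3.01 with a pseudocount of 1 and 0.45 with a pseudocount of 64. The hepatocyte markers, which mark the cells where rats make ascorbate, had summed signals of 292, 228 and 201 on arrays 1, 2 and 3, with Fga (71.7, 60.8 and 72.3) as the member above the median on all 3. Alb gave 23.3, 14.6 and 16.7. Without detection calls, these values do not show whether Gulo transcripts were present or absent.

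The ascorbate carriers were each set against the percentiles of the arrays. Slc23a1, the sodium-coupled ascorbate carrier of the apical membrane, gave 505, 377 and 449 on arrays 1, 2 and 3, a mean of 443 ± 64.2 (SD, n = 3), above the 75th percentile on each. Slc23a2, the carrier used in most other tissues, gave 154, 129 and 113 with probe set 1376969_at, between the median and the 75th percentile on each array. Its other probe set, 1369378_at, gave 4.97, 12.5 and 8.25, below the median on all 3. The probe sets of Slc23a2 thus disagreed on which side of the median the gene lay. Of all 4525 genes with more than 1 probe set, 29.4% had probe sets on both sides of the median on all 3 arrays. With the mean of its probe sets, the signal of Slc23a2 was 70.2, against 132 ± 21.0 (SD, n = 3) for the brighter probe set alone. Which transcripts each probe set detects was not examined here. Slc23a3, a related carrier of the same family, gave 38.7, 38.6 and 47.9, just above the median on each array.

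The preparations were then set side by side for the 7 genes above the array median. For none of the 7 did the range reach 2-fold, against 1.37% of all 8674 genes above the median on every array. Their median range was 0.30 log2 units, against 0.29 over all these genes, and 3 of the 7 (Miox, Akr1a1 and Cryl1) ranged by less than the overall median. Only Rgn, with 0.78 log2 units, lay beyond the 90th percentile of ranges, which was 0.59. Of the 8674 genes, 3.65% had a range as large as that of Rgn or larger.

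**Figure D2:**
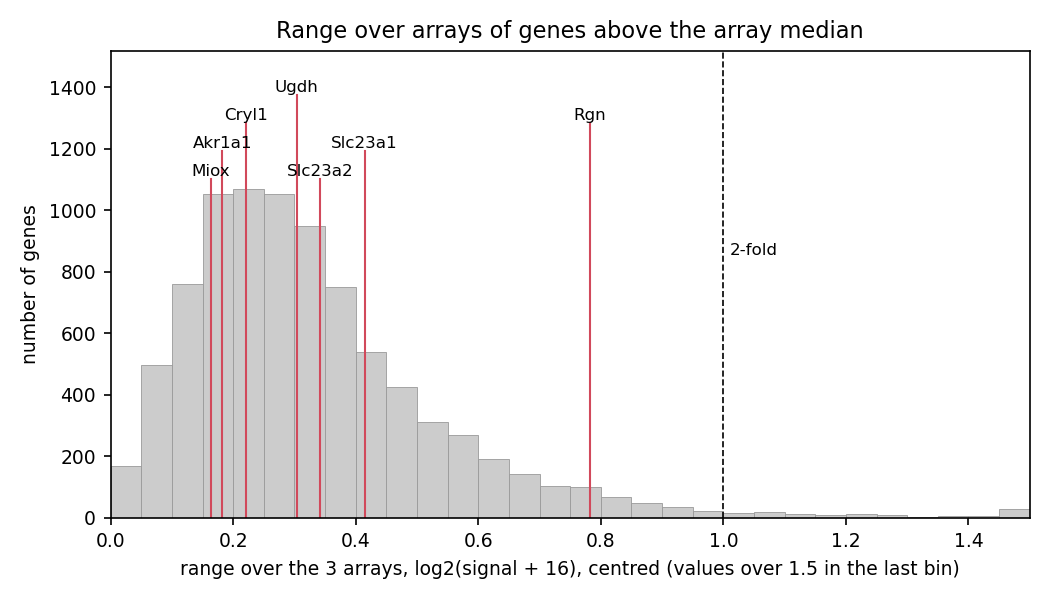
Histogram of the range over the 3 arrays (log2 units, centred) for the 8674 genes above the array median on every array, with the 7 members marked by red lines and 2-fold by a dashed line. Miox, Akr1a1 and Cryl1 lie left of the overall median of 0.29, and Rgn at 0.78 lies apart from the other 6.

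Signals as deposited were highest on array 1 for 7 of the 7 genes, against 56.6% of the 8674 genes, and lowest on array 2 for 6 of the 7, against 43.3%. Slc23a2, the exception, was lowest on array 3. With values centred on array medians the lowest was again array 2 for 6 of 7 genes, against 53.0%, but array 1 was highest for 5 of 7, against 49.9%, with Akr1a1 and Cryl1 highest on array 3. With quantile normalization, which gives all arrays the same distribution, the lowest was array 2 for 4 of 7 (Ugdh, Akr1a1, Rgn and Slc23a1), against 30.6%. The highest was then array 1 for 4 of 7, against 32.0%, with Cryl1 and Rgn highest on array 3 and Akr1a1 equal on arrays 1 and 3. Of the 6 members above the 75th percentile, array 1 was highest for all 6 and array 2 lowest for all 6 in deposited signal, against 65.2% and 50.5% of the 5172 genes above that line. For these 6, array 2 was lowest for all 6 with centring, against 62.4%, and for 4 with quantile normalization, against 29.7%. Array 1 was highest for 4 of the 6 with centring, against 56.6%, and for 3 with quantile normalization, against 32.3%. The summed signal of the hybridisation controls BioB, BioC, BioDn and CreX was also highest on array 1, at 27599, 24069 and 23806 on arrays 1, 2 and 3, and its part in the order of the genes was not tested. After quantile normalization the range of Miox was 0.08 log2 units and that of Akr1a1 0.02, against 0.16 and 0.18 with centring.

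**Figure D3:**
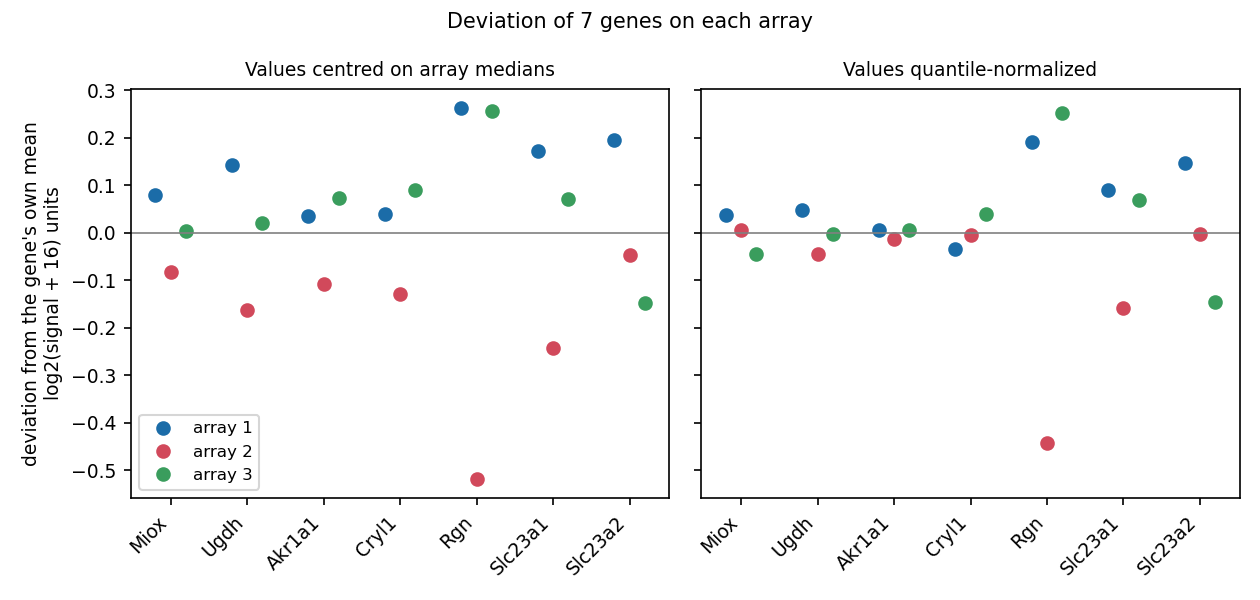
Deviation of each of the 7 genes from its own mean over the 3 arrays, in log2(signal + 16) units, with values centred on array medians (left) and quantile-normalized (right). Rgn sits lowest on array 2 in both panels, at -0.52 and -0.44, while Miox, Akr1a1 and Cryl1 draw close to 0 in the right panel.

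The deviation of Rgn from its own mean was -0.52 log2 units on array 2, against 0.26 on each of arrays 1 and 3. Of the 8674 genes, 0.623%, 54 with Rgn included, had a deviation on array 2 as low. Rgn and array 2 were picked here for the widest range among the 7 members, so this share is a description and not a test. After quantile normalization the Rgn signals were 499, 316 and 521, so array 2 stayed the low one. On array 2 the median deviation was -0.07 over all 8674 genes. Among markers above the median it was -0.11 for proximal tubule, -0.23 for thick limb and distal tubule, -0.13 for collecting duct, -0.25 for macrophages, -0.07 for endothelium and 0.04 for thin limb and medulla. Their part in the low Rgn value was not tested. The 3' to 5' ratio of the beta-actin control was 3.85, 3.28 and 3.66 on arrays 1, 2 and 3, and its part was not tested either.

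The genes whose pattern over the arrays was nearest to that of Rgn were Amotl2, the serine protease gene Tmprss2 and Cd74, the invariant chain of class II antigen presentation, by the Euclidean distance of centred deviations over 3 arrays. Amotl2 gave 549, 321 and 527 (distance 0.02), Tmprss2 gave 677, 378 and 649 (0.04) and Cd74 gave 4952, 3011 and 4827 (0.04). For Slc23a1, the member with the next largest range, the nearest were Ctnnbl1, Fbxl15 and Asxl1, with distances of 0.001, 0.007 and 0.009. Of 8673 genes compared, 16 lay within 0.1 of Rgn and 550 within 0.1 of Slc23a1.

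The other genes of the pathway were taken from 5 lists, with 44 of 48 genes measured. Of these, 37 lay above the median on all 3 arrays and 25 above the 75th percentile, against 61.0% and 36.4% of all named genes. For none of the 37 above the median did the range over the arrays reach 2-fold, against 1.37% of all 8674 genes above it. Each list gene, like every named gene, took its probe set of highest mean signal. Some, such as Pam with 3 probe sets, have others whose values are not given here and may differ.

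**Figure D4:**
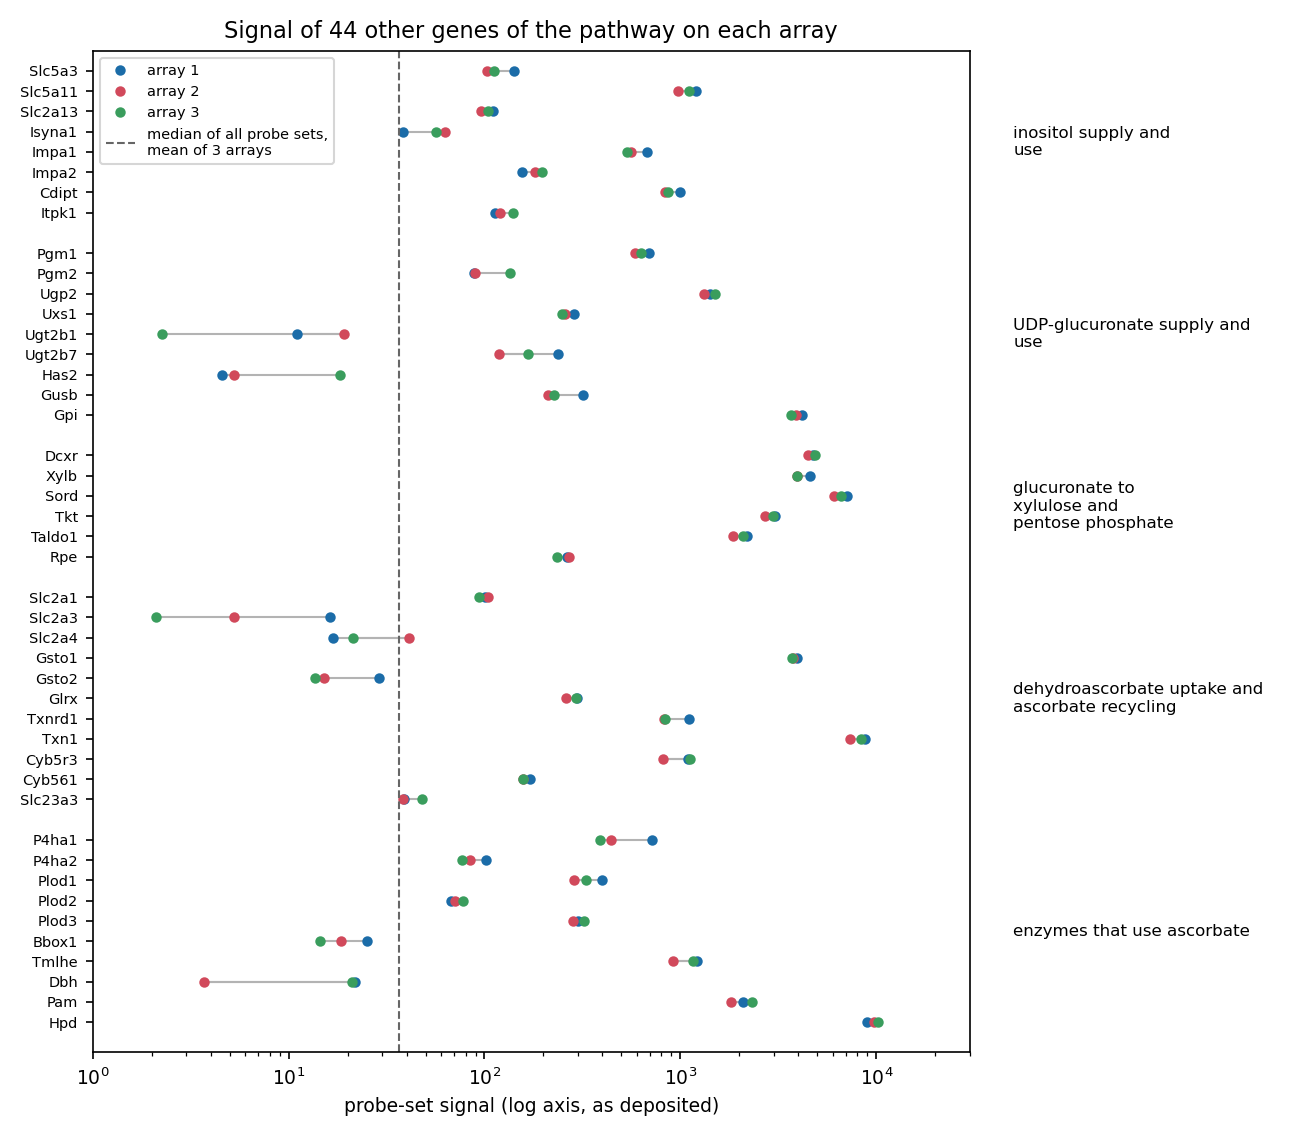
Signal of the 44 measured genes of the 5 pathway lists (log axis, linear signal as deposited) on arrays 1, 2 and 3; a grey line joins the arrays and the dashed line is the median of all probe sets. All 6 measured genes of the xylulose and pentose phosphate list lie above the median, and genes with a wide spread on this axis, such as Slc2a3 and Ugt2b1, lie below it.

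In the supply and use of inositol, 8 of 8 genes lay above the median on all 3 arrays, against 61.0% of all named genes. Among named genes, the median percentile of this list was 58.3. Slc5a11, a sodium-coupled inositol carrier, gave 1197, 974 and 1111, and Slc5a3, its osmotically regulated relative, gave 142, 103 and 112. The highest of the 3 was array 1 for both carriers. Isyna1, which makes inositol from glucose 6-phosphate, gave 38.4, 62.7 and 56.8, and on array 1 it lay just above the median of 37.1. Impa1, a phosphatase that releases free inositol, gave 676, 563 and 531. Cdipt, which builds phosphatidylinositol, gave 999, 831 and 864.

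Beyond Cryl1, all 6 measured genes of the list from xylulose into the pentose phosphate pathway lay above the 75th percentile on all 3 arrays, with a median percentile of 97.7. Dcxr, the xylulose reductase, gave 4772, 4492 and 4840, Sord, which oxidises xylitol and sorbitol, gave 7037, 6084 and 6579, and Xylb, the xylulose kinase, gave 4579, 3932 and 3933. The signals of Miox, Akr1a1, Cryl1, Dcxr, Sord and Xylb thus all lay above the 75th percentile on every array, against 36.4% of all named genes. Dhdh, also on this list, was not measured. Of the listed pentose phosphate enzymes, Tkt gave 3054, 2710 and 2955, Taldo1 gave 2173, 1855 and 2085 and Rpe gave 264, 271 and 234. Their ranges over the arrays ran from 0.13 log2 units for Rpe to 0.24 for Taldo1.

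Around UDP-glucuronate, 7 of 9 measured genes lay above the median on all 3 arrays, against 61.0% of all named genes. The median percentile of this list was 68.3. Slc35d1, Ugt1a1 and Ugt1a6, also on this list, were not measured. Gpi, which does not act on UDP-glucuronate itself, was among the 7, at 4185, 3875 and 3673 on arrays 1, 2 and 3. Ugp2, which makes the UDP-glucose that Ugdh oxidises, gave 1410, 1318 and 1494, and Uxs1, which turns UDP-glucuronate into UDP-xylose, gave 285, 257 and 249. The conjugating enzyme gene Ugt2b7 gave 238, 119 and 166, whereas Ugt2b1 gave 11.0, 19.1 and 2.25, below the median on all 3. Has2, a hyaluronan synthase, also lay below it, at 4.58, 5.28 and 18.4. Gusb, the lysosomal enzyme that frees glucuronate from conjugates, gave 318, 211 and 226. Related Ugt genes share sequence, so these probe sets may read more than 1 of them.

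For dehydroascorbate uptake and the recycling of ascorbate, 8 of 11 genes lay above the median on all 3 arrays, against 61.0% of all named genes. The 8 include Slc23a3, listed as a relative of the ascorbate carriers, which lay just above the median. The median percentile of this list was 59.9. Gsto1, an omega class glutathione transferase with dehydroascorbate reductase activity, gave 3938, 3744 and 3701, while Gsto2, its relative, gave 29.1, 15.1 and 13.7, below the median on each. Txn1, thioredoxin, gave 8765, 7296 and 8301 and Txnrd1, the reductase that recharges it, 1112, 823 and 836. Of the listed glucose carriers that take up dehydroascorbate, Slc2a1 gave 101, 104 and 94.1, Slc2a3 gave 16.2, 5.25 and 2.11 and Slc2a4 gave 16.8, 41.2 and 21.4. Slc2a1 alone of these listed carriers lay above the median on all 3 arrays, and glucose carriers outside the list were not examined here.

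Of 10 enzymes that use ascorbate, 8 lay above the median on all 3 arrays, against 61.0% of all named genes. The median percentile of this list was 73.1. Hpd, the dioxygenase of tyrosine breakdown, gave 8913, 9735 and 10193. Tmlhe, the first enzyme of carnitine synthesis, gave 1214, 917 and 1158, while Bbox1, the last, gave 25.1, 18.6 and 14.5, below the median on each array. Pam, which amidates peptides, gave 2098, 1816 and 2328. P4ha1, a subunit of collagen prolyl hydroxylase, gave 712, 445 and 389, the widest range of the 8 at 0.79 log2 units. Dbh, which makes noradrenaline in nerves and the adrenal, gave 21.9, 3.71 and 21.0.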

How the data were processed

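Proximal tubule preparations from 1 group of 3 were each measured on 1 array, so no test between groups was made. The deposited values are linear signal intensity per probe set, all above 0; the summarisation software and scaling are not given in the sources used here, and no detection calls were used. The number of arrays limits the precision. The members, lists and motifs were chosen with earlier results of these data known, and all 8 members and any gene of the 5 pathway lists could be named.

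Gene symbols came from GEO's platform annotation; 20826 probe sets named 1 gene, 436 several and 9780 none here, and 57 controls were left out. Of the first, 20758 matched RefSeq gene identifiers, changing 0 symbols. A gene took its probe set of highest mean signal. Ranges used log2(signal + 16) minus each array's median on that scale. Scripts ran in Python 3.11.15 with pandas 2.3.3 and numpy 2.4.6 and were tested on simulated data. Alternatives were other percentile lines, pseudocounts of 1 and 64, no centring, quantile normalization, arrays scaled to a common median, mean probe sets, probe sets without a shared-transcript suffix, and each array left out.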

Additional observations from a re-analysis of the deposited data

How the results depend on the processing

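The count of 7 of 8 genes above the array median was 7 with the mean of probe sets and with quantile normalization, and 6 with the line at the 75th percentile. It was also 7 at the 25th percentile and without each array in turn (7 to 7), settings that could only keep or raise it, so Gulo joined the count in none of them. No member probe set has a shared-transcript suffix, so leaving such probe sets out could change nothing. The count of 7 of 10 probe sets was 7 in the same way and 6 at the 75th percentile. The 1 gene that ranged 2-fold or more, Gulo, did so also without centring and with quantile normalization. It did so with a pseudocount of 1 as well, but a smaller pseudocount widens the range of low signals, so that setting could hardly remove Gulo. That count was 0 with a pseudocount of 64 and 0 with the mean of probe sets, and ran from 0 to 1 with an array left out (0 without array 1 or without array 3). Leaving out an array could not raise that count. The 37 pathway genes above the median were 40 at the 25th percentile and 25 at the 75th. Leaving out 1 of 3 arrays cannot move a mean by 1 SD, and a gene with 1 probe set cannot move with the mean of probe sets. Of the 18 other alternative mean signals, 17 moved by less than 1 SD, the exception being Slc23a2 with the mean of its probe sets. Of 32 alternative ranges, 26 moved by less than 1 SD; the other 6 were those of Miox, Ugdh, Akr1a1 and Cryl1 with quantile normalization and of Gulo with either pseudocount. The comparison of array orders was chosen after seeing the data: array 1 was highest for 7 of 7 genes in deposited signal, 5 with centring and 4 with quantile normalization, and array 2 lowest for 6, 6 and 4. No paired analysis was possible because there is only 1 group of arrays. Low signals, such as those of Gulo, have no detection call and carry little order.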
